A study of Mus musculus with 15 samples.

Results

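Calcium transport and vitamin D metabolism in the kidney were followed through 10 genes: the vitamin D receptor Vdr, the vitamin D hydroxylases Cyp24a1 and Cyp27b1, the epithelial calcium channels Trpv5 and Trpv6, the calcium-binding proteins Calb1 and S100g, the sodium-calcium exchanger Slc8a1 and the plasma membrane calcium pumps Atp2b1 and Atp2b4. The genes were chosen by symbol for their known roles, and each of the 10 was found in 1 row among the 47069 genes of the deposited table. Expression had been measured by RNA-Seq in 12 libraries, each from a single microdissected tubule (PTS2 in the labels, a proximal tubule segment), and in 3 whole kidney libraries. All came from male C57BL/6 mice aged 2 months, with no treatment named. The tubule libraries were labelled as 3 sets, m1, m2 and m3, with 4 replicates each. The labels do not say which libraries came from the same animal, so the spread between replicates may be technical and p-values measure only that spread.

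Calcium that is filtered by the glomerulus is taken back along the nephron by different routes. In the proximal tubule it moves mainly between the cells, through pores formed by claudins. In the late distal convoluted tubule and the connecting tubule it crosses the cells, entering through Trpv5 and Trpv6, being carried by calbindins and leaving through Slc8a1 and the Atp2b pumps. The proximal tubule is the classical renal site of vitamin D activation, in which Cyp27b1 makes the active hormone, Cyp24a1 inactivates it, and the hormone acts through Vdr paired with a retinoid X receptor.

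The stretches of 250 bases before the RefSeq start sites were examined for 8 of the members in the RefSeq promoter table (build GRCm38.p6), and those of 4 are shown. Of these, Trpv5 and Trpv6 were close to 0 in the tubules, S100g was detected at 0.235% of the kidney mean, and Vdr was retained. Slc8a1, Cyp27b1 and Atp2b4 were also close to 0 in the tubules, and their windows are not shown. Sequences run 5′ to 3′ on the gene's strand, which is the minus strand for all 4. Capitals mark the hexamer AGGTCA in either orientation, a repeat unit of vitamin D response elements, and the TATA box hexamer TATAAA. The Vdr window holds neither. The windows lie at chr6:41680724-41680973 for Trpv5, chr6:41636406-41636655 for Trpv6, chrX:162964600-162964849 for S100g and chr15:97908297-97908546 for Vdr. RefSeq starts can differ from the gene limits given below, which come from GENCODE. The Vdr window lies inside those limits and the Trpv5 window overlaps them. These 2 windows are therefore not wholly upstream of the gene as given there, and the same holds for Atp2b1 and Atp2b4.
Trpv5: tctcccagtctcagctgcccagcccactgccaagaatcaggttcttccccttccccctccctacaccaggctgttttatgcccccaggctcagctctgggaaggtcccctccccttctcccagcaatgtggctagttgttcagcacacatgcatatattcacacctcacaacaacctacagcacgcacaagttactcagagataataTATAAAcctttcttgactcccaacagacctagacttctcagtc
Trpv6: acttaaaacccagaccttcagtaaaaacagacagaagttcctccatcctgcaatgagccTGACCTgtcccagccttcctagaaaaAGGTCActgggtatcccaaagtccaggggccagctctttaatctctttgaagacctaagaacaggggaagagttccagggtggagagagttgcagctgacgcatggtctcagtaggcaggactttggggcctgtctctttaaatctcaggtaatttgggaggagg
S100g: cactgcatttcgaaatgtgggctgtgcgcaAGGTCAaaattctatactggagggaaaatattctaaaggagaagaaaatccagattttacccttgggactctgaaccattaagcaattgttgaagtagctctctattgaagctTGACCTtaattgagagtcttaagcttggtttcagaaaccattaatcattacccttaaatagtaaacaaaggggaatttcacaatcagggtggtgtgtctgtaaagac
Vdr: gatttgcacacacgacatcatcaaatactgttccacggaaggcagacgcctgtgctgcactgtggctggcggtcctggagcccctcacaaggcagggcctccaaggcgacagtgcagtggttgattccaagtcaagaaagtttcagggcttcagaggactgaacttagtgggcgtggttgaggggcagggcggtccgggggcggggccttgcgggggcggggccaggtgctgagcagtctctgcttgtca

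AGGTCA occurred in 2 of the 8 matched members, Trpv6 and S100g, against 14% of 32851 promoter windows of the same length. In Trpv6 the hexamer began 191 and 165 bases before the start, the first on the opposite strand, and in S100g it began 220 and 107 bases before it, the latter on the opposite strand. Neighbouring repeats in direct orientation, searched on both strands as GNTCANNNNGNTCA (whose repeat unit overlaps AGGTCA), were in 0 of the 8 members' windows and in 0.548% of all windows. TATAAA was in 1 member, Trpv5, 43 bases before the RefSeq start, and in 12.4% of all windows. In Trpv5 it falls inside the gene limits given below. The windows differed in CpG dinucleotides, of which the median window held 6. Trpv5, Trpv6 and Cyp27b1 had 1 each, S100g and Atp2b4 had 2 each, and Slc8a1 had 8, while Vdr had 11 and the windows of Atp2b1 had 43 and 41.

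The PTS2 label was checked with marker genes. Of the markers of all proximal segments, Slc27a2 had a tubule median of 9288 TPM against a kidney mean of 4620 TPM, and Slc34a1 one of 3248 TPM against 4544 TPM. The S2 markers went different ways: Slc22a6 had a tubule median of 591 TPM (kidney mean 486 TPM), and Slc22a8 was below kidney in every tubule, with a median of 52.9 TPM (kidney mean 272 TPM). S3 markers (Slc7a13, Cyp7b1) summed to 148% to 294% of their kidney mean and S1 markers (Slc5a2, Slc5a12) to at most 0.201%. The segments that move calcium through cells were nearly absent: markers of the distal convoluted tubule (Slc12a3, Pvalb, Trpm6) reached 0% to 0.265% of the kidney level, and for each of the 3 every tubule lay below every kidney library. Of the connecting tubule markers, Scnn1b and Scnn1g were at most at 0.27 and 0.09 TPM (kidney means 37.6 and 32.3 TPM), and Klk1 had a tubule median of 3.53 TPM and a kidney mean of 2795 TPM. Klk1 was highest in m3 replicate 3, at 188.51 TPM, where Scnn1b and Scnn1g were at 0.01 and 0.06 TPM. That library held 56.1% of the kidney level of thick ascending limb markers, against at most 2.17% in the other 11 tubules. Endothelial markers were at 7.20% to 26.6%. Of the macrophage markers, C1qa and C1qb were at most at 3.22 and 6.39 TPM in the tubules (kidney means 16.98 and 37.4 TPM), whereas Csf1r had a tubule median of 38.5 TPM and a kidney mean of 21.1 TPM. TPM, which express each transcript's abundance per unit length as a share of its library, keep no record of depth, so the depth is unknown and no counting interval is given. A value of 0 means that the gene is listed at 0.

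**Figure D1:**
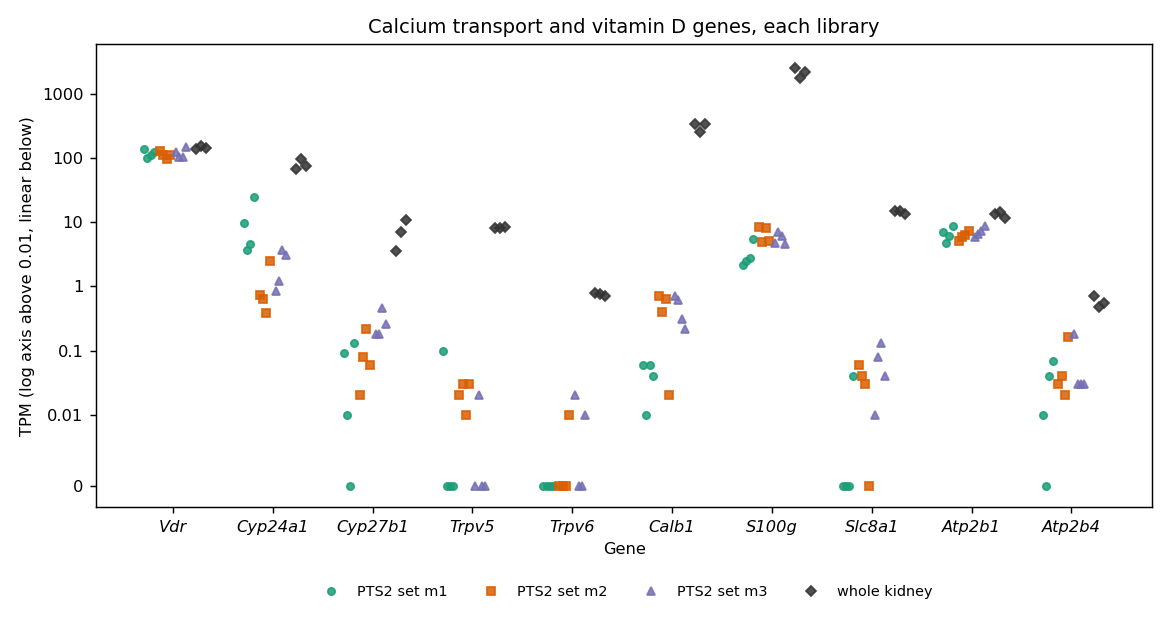
TPM of the 10 genes in each library (log axis above 0.01 TPM, linear below), with circles, squares and triangles for the 4 tubules of sets m1, m2 and m3 and diamonds for the 3 whole kidney libraries. Only Vdr overlapped between tubules and kidney, and S100g and Calb1 were farthest apart.

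Vdr, the nuclear receptor for active vitamin D (ENSMUSG00000022479, GRCm38 chromosome 15, 97854425 to 97910630), was abundant in the tubules. Its lowest PTS2 library was at 95.16 TPM, the median at 112 TPM and the highest at 147.71 TPM. The whole kidney libraries were at 140.09, 154.16 and 142.72 TPM. The groups overlapped: the highest tubule, m3 replicate 4, exceeded the lower 2 kidney libraries. The tubules averaged 116.6 ± 16.0 TPM (SD, n = 12) and the kidney libraries 145.7 ± 7.48 TPM (SD, n = 3), so that PTS2 held 80.0% of the kidney level. The difference on the log2(TPM + 1) scale was -0.33 ± 0.11 (SE, limma adjusted p = 0.0243). It was close to the median difference of all tested genes, -0.27, and after median-of-ratios rescaling, which set that median to 0.00, it was -0.04 (limma adjusted p = 0.741). After quantile normalization it was -0.28 (limma adjusted p = 0.0303), where the median of all genes was 0.156. The call for Vdr thus depended on the scaling. The call also ended when any of the kidney libraries was left out, with limma adjusted p values of 0.0515 without replicate 1, 0.110 without replicate 2 and 0.0612 without replicate 3.

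Cyp24a1, which inactivates vitamin D and is a classical target of Vdr (ENSMUSG00000038567, chromosome 2, 170482708 to 170497145), was detected in each tubule but at very different levels. It ranged from 0.38 TPM through a median of 2.81 TPM to 24.87 TPM in PTS2, and was at 68.65, 95.86 and 74.46 TPM in whole kidney. Every tubule was below every kidney library, and the highest tubule, m1 replicate 4, was at 31.2% of the kidney mean where the lowest was at 0.477%. The mean was 4.66 ± 6.87 TPM (SD, n = 12) against 79.7 ± 14.3 TPM (SD, n = 3), which is 5.85% of the kidney level, and 3.55% without m1 replicate 4. The log2 difference was -4.41 ± 0.65 (SE, limma adjusted p = 2.71e-05). In the annotation 2.33% of its exonic bases overlap Pfdn4 on the other strand, and no strand information is stated for the libraries.

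Cyp27b1, which makes active vitamin D (ENSMUSG00000006724, chromosome 10, 127048250 to 127053006), was near 0 in the tubules. Its PTS2 values ran from 0 in m1 replicate 3 through a median of 0.11 TPM to 0.46 TPM in m3 replicate 3. Whole kidney libraries were at 3.54, 7.01 and 10.73 TPM, so that the highest was 3.03 times the lowest, the widest spread among kidney libraries of the 10 members (the next was Atp2b4, at 1.51 times). The groups did not overlap. The tubule mean of 0.141 ± 0.131 TPM (SD, n = 12) was 1.99% of the kidney mean of 7.09 ± 3.60 TPM (SD, n = 3). On the log2 scale the difference came to -2.73 ± 0.20 (SE, limma adjusted p = 7.85e-09). Cyp27b1 entered the fit only through its kidney level, so a lower call was largely set by the filter. Its highest tubule is the library with thick ascending limb markers. Without that library the highest value was 0.26 TPM, the mean was 1.58% of the kidney level and the log2 difference was -2.76 (limma adjusted p = 7.65e-09).

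The channels of the apical membrane were almost undetected in PTS2. Trpv5 (ENSMUSG00000036899, chromosome 6, 41652173 to 41680769), the main calcium entry channel of the distal nephron, was listed at 0 in 6 of 12 tubules and at most at 0.1 TPM, in m1 replicate 1. It was at 8.02, 8.09 and 8.47 TPM in whole kidney. The tubule mean was 0.214% of the kidney mean, or 0.122% without m1 replicate 1, and the log2 difference was -3.18 ± 0.10 (SE, limma adjusted p = 9.01e-14). Trpv5 entered the fit only through its kidney level, so a lower call was largely set by the filter. Its neighbour and close paralog Trpv6 (ENSMUSG00000029868, chromosome 6, 41620624 to 41636405) was low in whole kidney too, at 0.79, 0.76 and 0.72 TPM. It was listed at 0 in 9 of 12 tubules and reached 0.02 TPM in m3 replicate 1. With a mean below 1 TPM it did not enter the fit, and an exact permutation test of the mean TPM gave p = 0.0022 (two-sided), the smallest value that 12 against 3 libraries allow. With 3 set means against 3 kidney libraries the smallest possible p is 0.1, and that value was reached. In the limma fit without a filter its log2 difference was -0.81 ± 0.02 (SE, adjusted p = 3.93e-14). Reads from identical stretches of the paralogs could have been divided between them in the quantification.

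The calcium buffers were the most abundant members in whole kidney and had the largest differences on the log2(TPM + 1) scale. As a ratio of means, kidney over PTS2, Trpv5 (468) lay above S100g (425) and below Calb1 (1006). S100g, the smaller calbindin (ENSMUSG00000040808, chromosome X, 162961992 to 162964599), was at 2558.41, 1802.1 and 2200.1 TPM in whole kidney. In PTS2 it ranged from 2.12 through a median of 5.01 to 8.4 TPM. It was thus detected in each tubule, at 0.0969% to 0.384% of the kidney mean, and the groups were far apart. PTS2 differed from kidney by -8.54 ± 0.28 on the log2 scale (SE, limma adjusted p = 1.67e-13). Calb1, the larger calbindin (ENSMUSG00000028222, chromosome 4, 15881264 to 15908064), was at 345.64, 259.46 and 343.27 TPM in whole kidney and between 0.01 and 0.7 TPM in PTS2, with a median of 0.265 TPM. Its tubule mean was 0.0994% of the kidney mean, the lowest percentage of the 10 members. On the log2 scale it differed by -7.93 ± 0.19 (SE, limma adjusted p = 2.66e-15). Calb1 entered the fit only through its kidney level, so a lower call was largely set by the filter. With a pseudocount of 0.1 and no filter it differed by -9.95 ± 0.64 (SE).

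Among the proteins that move calcium out of the cell, the exchanger and the pumps differed. Slc8a1 (ENSMUSG00000054640, chromosome 17, 81373105 to 81738377), the sodium-calcium exchanger, was at 14.79, 15.06 and 13.31 TPM in whole kidney. It was listed at 0 in 4 of 12 tubules, with a median of 0.035 TPM and a highest value of 0.13 TPM in m3 replicate 3. The tubule mean was 0.249% of the kidney mean, or 0.190% without that library. On the log2 scale Slc8a1 differed by -3.89 ± 0.10 (SE, limma adjusted p = 8.71e-15), and -3.90 without m3 replicate 3. It entered the fit only through its kidney level, so a lower call was largely set by the filter. Atp2b1 (ENSMUSG00000019943, chromosome 10, 98914406 to 99026143), the widely expressed calcium pump, was the only extrusion gene above 1 TPM in PTS2. It ranged from 4.83 through a median of 6.39 to 8.84 TPM in the tubules and was at 13.3, 14.41 and 11.69 TPM in whole kidney. The groups did not overlap, and the tubule mean of 6.65 ± 1.25 TPM (SD, n = 12) was 50.6% of the kidney mean of 13.1 ± 1.37 TPM (SD, n = 3). The log2 difference was -0.90 ± 0.15 (SE, limma adjusted p = 0.000106), -0.63 after median-of-ratios rescaling (adjusted p = 0.00143) and -0.33 after quantile normalization (adjusted p = 0.0490). Atp2b4 (ENSMUSG00000026463, chromosome 1, 133699457 to 133801041), another isoform of the pump, was at 0.71, 0.47 and 0.56 TPM in whole kidney and at 0 to 0.18 TPM in PTS2, with a median of 0.03 TPM. The groups did not overlap (exact permutation p = 0.0022, two-sided, the smallest possible for single libraries, and 0.1, the smallest possible, for 3 set means), and in the limma fit without a filter the log2 difference was -0.58 ± 0.05 (SE, adjusted p = 3.80e-07).

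In all, every tubule was below every kidney library for 9 of the 10 members, Vdr being the exception. Among genes averaging 1 TPM or more, 32% showed this separation, and of the genes tested without a filter 20%. All 8 members that entered the limma fit were called lower in the tubules (adjusted p under 0.05), where 41.5% of 12039 genes were called lower and 9.68% higher. The filter averaged tubule and kidney libraries together. Cyp27b1, Calb1, Trpv5 and Slc8a1, with tubule means under 1 TPM, therefore entered only through their kidney level. For these 4 a lower call was largely set by the filter. In the fit without a filter all 10 members were called lower, Trpv6 and Atp2b4 included, as were 26.9% of genes. After median-of-ratios rescaling 7 of the 8 were called lower, the exception being Vdr, and of all genes 23.1% were then called lower and 23.7% higher. The mean tubule level was under 1% of the kidney level for 4 of the 8 fitted members, Trpv5, Calb1, S100g and Slc8a1, and 0.914% of the 12039 genes were that low. Of these members only S100g averaged 1 TPM or more over the tubules, so the filter favoured low percentages for the others. Trpv6, below the filter, was at 0.441%. Whole kidney is a mixture, so fewer cells of a type and less RNA per cell cannot be told apart. A pseudocount of 1 compresses low values. With a pseudocount of 0.1 the log2 difference was -6.17 for Trpv5, -6.78 for Slc8a1, -4.95 for Cyp27b1, -9.95 for Calb1, -3.05 for Trpv6 and -2.21 for Atp2b4.

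**Figure D2:**
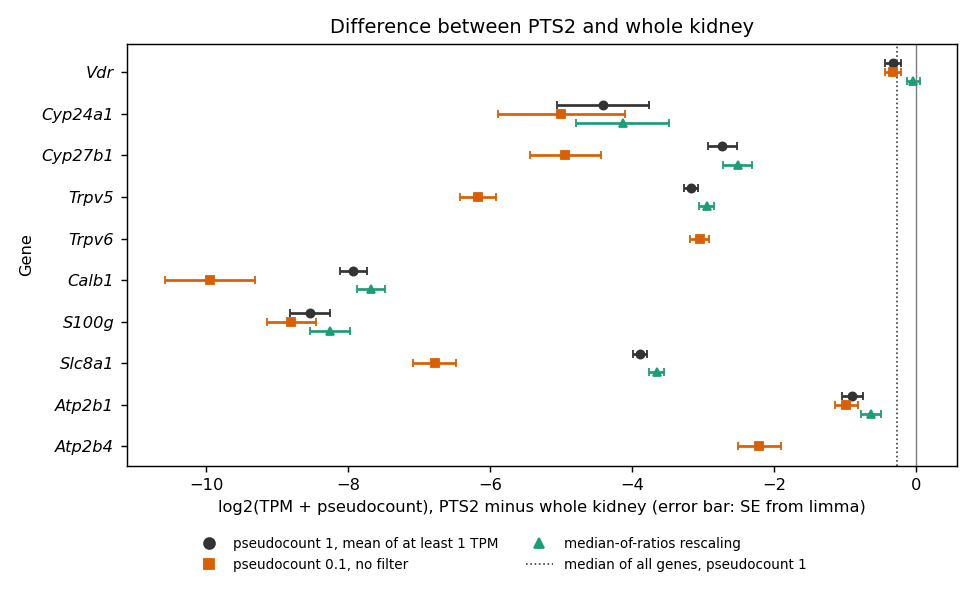
Difference in log2(TPM + pseudocount) between PTS2 and whole kidney for each gene, with the limma SE as bars, for 3 ways of processing; the dotted line is the median of all genes tested, at -0.27. Vdr lies next to that line and the buffers lie farthest from it, while Trpv6 and Atp2b4 have a value only in the fit without a filter.

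**Figure D3:**
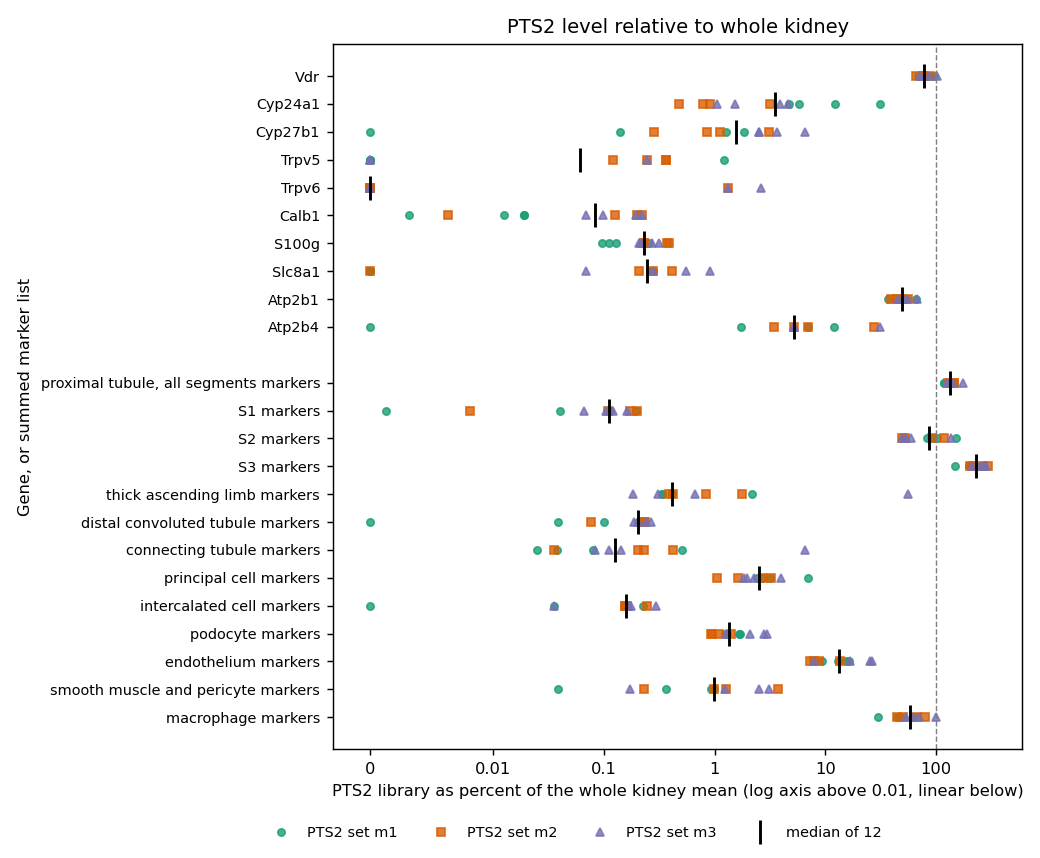
Each tubule as a percentage of the whole kidney mean (log axis above 0.01%, linear below) for the 10 genes and for the summed markers of segments and cell types; black ticks are medians of 12. Calb1, at most at 0.221%, lies within the span of the distal convoluted tubule markers, which end at 0.265%. S100g, Slc8a1, Trpv5, Trpv6 and Cyp27b1 reach 0.384%, 0.904%, 1.22%, 2.64% and 6.48%. The connecting tubule markers reach 6.58%, through Klk1 in m3 replicate 3. Vdr lies around 80.0% and Atp2b1 around 50.6%.

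The order of the members by TPM, which is a level per transcript length, was different in the tissues. In whole kidney S100g was highest, followed by Calb1, Vdr and Cyp24a1, and the libraries of neighbours in this order did not overlap. Slc8a1 and Atp2b1 came next and overlapped, as did Trpv5 and Cyp27b1 after them, and Trpv6 and Atp2b4 were last. In PTS2 Vdr was highest, and its libraries were above those of all other members. Atp2b1, S100g and Cyp24a1 followed, at means of 6.65, 5.15 and 4.66 TPM with overlapping libraries. The remaining 6 members had means under 1 TPM, each overlapping the next.

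Other genes of vitamin D handling were examined from a list of 22, of which 20 were tested. Of these, 11 were lower in PTS2, 0 were higher and 9 did not pass, where 41.5% of all genes were lower and 9.68% higher. The median log2 difference was -0.38, against -0.27 over all genes. It was -3.53 over the 8 tested members, of which Vdr was at -0.33. Cyp27b1, Calb1, Trpv5 and Slc8a1 had entered only through their kidney level, so the filter favoured a low median of the members. After median-of-ratios rescaling 5 were lower and 5 higher, with a median of -0.10 against 0.00, so the split of this list depends on the scaling. Gc, the vitamin D binding protein, was the lowest relative to kidney among the 20 tested. It averaged 3.63 ± 2.42 TPM (SD, n = 12) over the tubules and 32.3 ± 9.97 TPM (SD, n = 3) over the kidney libraries. The log2 difference was -3.00 ± 0.47 (SE, limma adjusted p = 5.99e-05). The coactivator Ncoa1 had a log2 difference of -0.67 (limma adjusted p = 0.00219). The tested partners of Vdr were lower. Rxra was at 32.0 ± 5.35 TPM against 49.4 ± 3.47 TPM, a log2 difference of -0.63 (limma adjusted p = 0.00128). Rxrb had a log2 difference of -0.74 (limma adjusted p = 0.00245). Rxrg, another retinoid X receptor, was below the filter, with a tubule mean of 0.00667 TPM and a kidney mean of 0.373 TPM (1.79%). Gc, Rxra and Rxrb were also called lower after rescaling or quantile normalization, and Ncoa1 was not after the latter (-0.03, adjusted p = 0.836).

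A few other list genes were picked for their roles after their values were seen. The receptors Lrp2 (megalin) and Cubn, which take up filtered vitamin D with its carrier, were at 97.7% and 97.6% of the kidney level. Their log2 differences were -0.04 and -0.05, and both turned positive after median-of-ratios rescaling (0.25 with an adjusted p of 0.0497, and 0.24 with one of 0.107) and quantile normalization (0.04 and 0.27). Their partners in the uptake complex, Dab2 and Amn, were lower in PTS2, at 69.2% and 80.1% of the kidney level (log2 differences -0.54 and -0.33, limma adjusted p = 0.000718 and 0.00821). After median-of-ratios rescaling neither passed (-0.25 and -0.04, adjusted p = 0.0552 and 0.780), and after quantile normalization both did (-0.59 and -0.29, adjusted p = 0.000171 and 0.0103). Cyp27a1, another mitochondrial sterol hydroxylase, averaged 47.0 TPM over the tubules and 49.8 TPM over the kidney libraries, a log2 difference of -0.09 that became 0.20 after median-of-ratios rescaling and 0.11 after quantile normalization. Pth1r, the parathyroid hormone receptor, was at 563 and 499 TPM, a log2 difference of 0.17 (limma adjusted p = 0.101). This became 0.46 (adjusted p = 0.000334) after median-of-ratios rescaling and 0.04 (adjusted p = 0.711) after quantile normalization.

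Of 28 other calcium handling genes, 21 were tested. Of these, 14 were lower in PTS2, 1 was higher and 6 did not pass, where 41.5% of all genes were lower and 9.68% higher. The median log2 difference was -0.54, against -0.27 over all genes. After median-of-ratios rescaling 11 were lower and 4 higher, where 23.1% of all genes were lower and 23.7% higher. Itpr2, Casr, Atp2a3 and Stim1, with tubule means under 1 TPM, entered only through their kidney level. For them a lower call was largely set by the filter. Anxa2, an annexin that binds Trpv5 and Trpv6 in a complex with S100a10, averaged 3.11 ± 2.67 TPM (SD, n = 12) over the tubules and 83.8 ± 4.08 TPM (SD, n = 3) over the kidney libraries. The log2 difference was -4.57 ± 0.42 (SE, limma adjusted p = 1.08e-07). The calcium release channel Itpr2 was at 0.354 and 22.4 TPM, a log2 difference of -4.13. The next 3 are genes of the thick ascending limb: the claudins Cldn19 and Cldn16 and the calcium-sensing receptor Casr had log2 differences of -4.04, -3.99 and -3.29. Each was highest in m3 replicate 3, at 15.2, 12.55 and 5.53 TPM, and at most at 0.93, 1.23 and 0.33 TPM in the other tubules. Without that library their log2 differences were -4.34, -4.28 and -3.51. The gene that was higher in PTS2 was Calm3, which encodes calmodulin, at 162 ± 16.5 TPM against 126 ± 11.3 TPM (log2 difference 0.36, limma adjusted p = 0.00459). Cldn2, the claudin of the proximal paracellular calcium pathway, was picked after its value was seen. It was at 109% of the kidney level, with a log2 difference of 0.11 (limma adjusted p = 0.424). This became 0.40 (adjusted p = 0.00260) after median-of-ratios rescaling and 0.04 (adjusted p = 0.786) after quantile normalization.

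**Figure D4:**
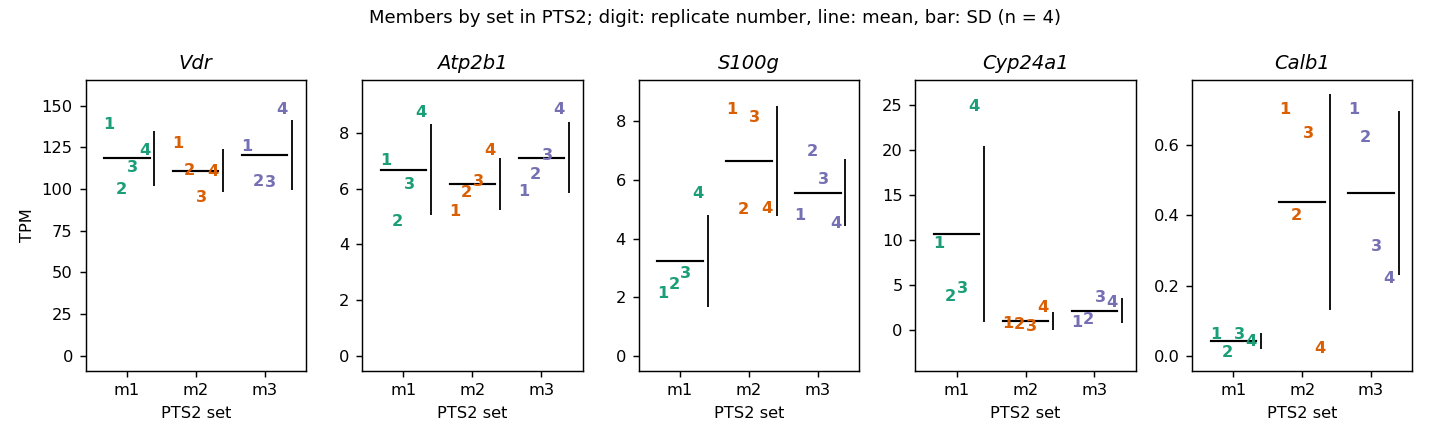
TPM of 5 genes in the PTS2 sets m1, m2 and m3; each digit is a library, named by its replicate number, with the set mean as a line and the SD (n = 4) as a bar. Cyp24a1 was highest and S100g and Calb1 lowest on average in m1, while the sets overlapped for Vdr and Atp2b1.

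The 3 sets of tubules were then compared with each other. The 4 members that averaged 1 TPM or more over the tubules were tested and 0 passed in the limma F test, in which 3.02% of 11300 genes were called; 2 of the 4, Cyp24a1 and S100g, had an unadjusted p under 0.05. Without a filter on low values 0 of 10 members passed, and 0.65% of genes were called. Vdr averaged 118 ± 16.4, 111 ± 13.1 and 120 ± 20.8 TPM (SD, n = 4 each) in m1, m2 and m3 (limma adjusted p = 0.856). For Atp2b1 they were 6.67 ± 1.63, 6.17 ± 0.926 and 7.11 ± 1.27 TPM (limma adjusted p = 0.807). The libraries of the sets overlapped for both genes.

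Cyp24a1 was at 9.68, 3.74, 4.62 and 24.87 TPM in replicates 1 to 4 of m1. It was at 0.73, 0.63, 0.38 and 2.51 TPM in m2, and at 0.84, 1.21, 3.63 and 3.12 TPM in m3. Each library of m1 was above each library of m2 and of m3. The share of all genes separated in this way between sets was not counted. The log2 difference between m2 and m1 was -2.27 ± 0.50 (SE, limma adjusted p = 0.0753), in a contrast that 0.54% of genes passed. That between m3 and m1 was -1.64 ± 0.50 (limma adjusted p = 0.104), in a contrast that 3.17% of genes passed. The F test missed the threshold (limma adjusted p = 0.0520), and it passed in 6 of 18 alternative fits, where adjusted p values ran from 0.00732 to 0.203. Without m1 replicate 4, the highest library, the difference between m2 and m1 was -1.77 (limma adjusted p = 0.141) and that between m3 and m1 -1.15 (adjusted p = 0.205). That library also had the highest sum of S2 markers among the 12, at 1149 TPM, the lowest of S3 markers, at 1463 TPM, and the highest of principal cell markers, at 6.91% of the kidney level, of which Aqp3 was 43.12 of 58.75 TPM and Aqp2 6.9 TPM. The part of these values in the Cyp24a1 level was not tested.

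S100g ran the other way. It was at 2.12, 2.45, 2.81 and 5.55 TPM in m1, at 8.4, 5, 8.13 and 5.02 TPM in m2 and at 4.77, 6.96, 6.02 and 4.52 TPM in m3. All of m1 except replicate 4 lay below the other sets. The log2 difference was 0.88 ± 0.24 between m2 and m1 (SE, limma adjusted p = 0.166) and 0.68 ± 0.24 between m3 and m1 (adjusted p = 0.157), and the F test did not pass (adjusted p = 0.122). It passed when m1 replicate 4 was left out (limma adjusted p = 0.0250). Calb1 was at 0.06, 0.01, 0.06 and 0.04 TPM in m1, at 0.7, 0.4, 0.63 and 0.02 TPM in m2 and at 0.7, 0.62, 0.31 and 0.22 TPM in m3. Each library of m1 was below each library of m3, whereas m2 overlapped m1 through its replicate 4. Such separation was not counted over all genes. In the limma fit without a filter the F test did not pass (adjusted p = 0.451). Markers of the distal convoluted tubule were highest at 0.55 TPM among the 12 tubules, and the part of such traces in the values of Calb1 and S100g was not tested.

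Of the vitamin D handling list, 0 of 20 tested genes passed among the sets, 2 having an unadjusted p under 0.05 in limma. Of the calcium handling list, 1 of 17 passed. This was Itpr1, a calcium release channel of the endoplasmic reticulum, whose mean was 53.9 ± 4.90 TPM in set m3, 33.7 ± 3.56 TPM in set m1 and 33.9 ± 7.67 TPM in set m2 (SD, n = 4 each; limma adjusted p = 0.0220). Every library of m3 was above every library of m1 and m2, a separation that was not counted over all genes. The call was lost without m3 replicate 1 (adjusted p = 0.0896), replicate 3 (0.0854) or replicate 4 (0.0614), and without a filter on low values (0.0851).

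Within PTS2, the genes whose log2(TPM + 1) followed each detectable member most closely over the 12 libraries were sought among those averaging 10 TPM or more. The 12 libraries share sets, and the values of r are given as a description, with no test. For Vdr they were Arhgef16, Ptpra and Nqo2 (Pearson r of 0.945, 0.942 and 0.941). For Atp2b1 they were Bag1, Apbb2 and Dnajc2 (0.942, 0.937 and 0.937). For S100g they were Mrpl12, Rnf146 and Sertad3 (0.886, 0.838 and 0.775). For Cyp24a1 they were the amino acid transporter Slc43a2, Card10 and Cxxc5 (0.860, 0.853 and 0.851), out of 6446 genes searched. Each had its highest set mean in m1, as Cyp24a1 did. Their choice by correlation over these same libraries favours such a shared pattern.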

How the data were processed

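Gene expression in 12 PTS2 tubule libraries and 3 whole kidney libraries was taken from 1 table of TPM values deposited by the authors. STAR 2.5.1b, RSEM 1.2.31 and genome build GRCm38.p5 are named in the submitters' processing notes, and the annotation release is not given in the sources used here. Each TPM column sums to between 999999 and 1000001. Per the labels' protocols, cDNA was made with a kit for very low RNA input. The 4 columns of the authors' means and errors were not used. Of the gene IDs, 46488 matched GENCODE M21, used for positions. Depth is unknown from TPM.

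Libraries were grouped by the description labels. limma 3.58.1 (R 4.3.3; trend, Benjamini-Hochberg over all genes tested, threshold 0.05) was run on log2(TPM + 1) for genes averaging 1 TPM or more, with the set as a correlated block (consensus correlation 0.0669) against whole kidney. Members below 1 TPM had an exact permutation test. Tests on simulated data with 200 changed genes among 12039 recovered 171 (PTS2 against whole kidney) and 158 (sets) at a log2 change of 1, and 198 and 195 at 2. False calls in these tests were 12 and 13 at a change of 1, and 8 and 9 at 2. The simulated errors were independent and normal, with each gene's tubule SD, and nothing was shared within sets or replicate numbers. Changed genes were drawn from those with a mean log2(TPM + 1) of at least 1 in the tubules. Recovery of members near 0, or with libraries that share structure, was therefore not tested. From the 2 gene lists, up to 5 called genes per direction with the largest differences were named, with any that differed among sets and 3 correlated genes per member; a gene that met this rule is not reported here. The members and lists were chosen with earlier results of these data known. Alternatives were another pseudocount, other filters, rescalings, blocking on the replicate number, dropping the correlation inside sets, averaging each set and leaving out each library; no filter together with a pseudocount of 0.1 was added after seeing the data. Figures were drawn with matplotlib 3.10.9 in Python 3.11.15.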

Additional observations from a re-analysis of the deposited data

Results flagged for a closer look

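For the 10 genes and several marker sums, libraries that lay far from the other 3 of their set were sought, as those whose gap to the nearest library exceeded Dixon's critical share of the whole span. Of 41 such checks 12 found one. Chance gives about 1 in 20 for continuous values, a rate that does not hold for the 4 sets below in which the other 3 libraries were listed at 0.

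Among the genes, Cyp24a1 was at 2.51 TPM in m2 replicate 4 and at most at 0.73 TPM in the other libraries of that set. The other 6 rest on values near the 2 decimals of the table. Trpv5 was at 0.1 TPM in m1 replicate 1 and 0.02 TPM in m3 replicate 2, where the other libraries of the set were listed at 0. Trpv6 was at 0.01 TPM in m2 replicate 4 and Slc8a1 at 0.04 TPM in m1 replicate 4, again with 0 in the others. Atp2b4 was at 0.16 TPM in m2 replicate 4 (next 0.04 TPM) and at 0.18 TPM in m3 replicate 1 (next 0.03 TPM).

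Among the marker sums, the thick ascending limb reached 1441 TPM in m3 replicate 3 (next 17.1 TPM) and 55.8 TPM in m1 replicate 4 (next 10.6 TPM). The connecting tubule sum reached 189 TPM in m3 replicate 3 (next 4.09 TPM) and 14.6 TPM in m1 replicate 4 (next 2.31 TPM). Klk1 alone made up 188.51 and 14.58 TPM of these sums. The distal convoluted tubule sum was low in m2 replicate 4, at 0.16 TPM (next 0.46 TPM).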

How the results depend on the processing

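The difference of each tested member from whole kidney kept its direction in all settings in which it was tested, and its call in all except Vdr, as given above. The number of genes called between PTS2 and whole kidney was 6161, and 9399 without a filter on low values, 3113 when genes had to average 10 TPM and 4761 to 6712 with a library left out. Members called lower were 8, and 4 when genes had to average 10 TPM, where fewer members are tested, and 6 to 8 with a library left out. The count of 6 came without kidney replicate 3, where Cyp27b1 fell under the filter and Vdr lost its call. Among sets 341 genes were called, 196 without a filter, 215 without a filter and with a pseudocount of 0.1, and 197 to 563 with a library left out (563 without m1 replicate 1, 220 without m2 replicate 2, and 197, 226 and 209 without m3 replicates 1, 2 and 3). The count of members was 0, and 1 (Cyp24a1) with a pseudocount of 0.1, median-of-ratios rescaling or quantile normalization, and 0 to 1 with a library left out (Cyp24a1 without m1 replicate 2 or m2 replicate 4, S100g without m1 replicate 4). A block on the replicate number called 888 of the 11300 genes and 1 member, Cyp24a1 (limma adjusted p = 0.00732, with 0.00815 between m2 and m1 and 0.0191 between m3 and m1). The numbers are not stated to pair libraries: deviations of same-numbered libraries correlated over 0.1 in 7 of 12 pairs (mean r 0.143), and 10 of 12 libraries were closest on average to their own number. Small uncalled differences changed sign. Between m3 and m1, Vdr (0.02) became -0.0701 after median-of-ratios rescaling and -0.0308 after quantile normalization, with -0.086 to 0.0954 when libraries were left out, and Atp2b1 (0.0912) became -0.0255 after quantile normalization (-0.0329 to 0.212). Atp2b1 between m2 and m1 (-0.0836) ran from -0.208 to 0.0377. Against whole kidney, median-of-ratios rescaling gave 0.25 for Lrp2, 0.24 for Cubn and 0.20 for Cyp27a1, and quantile normalization 0.04, 0.27 and 0.11, where the deposited scale gave -0.04, -0.05 and -0.09. The causes of these changes were not tested. Unknown depth limits what can be said of members under 1 TPM.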

Other observations

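In every PTS2 set Atp2b1 peaked in replicate 4 (8.71, 7.38 and 8.84 TPM in m1, m2 and m3). The sum of S2 markers (Slc22a6, Slc22a8) peaked there too, reaching 1149, 892 and 1024 TPM, and that of S3 markers (Slc7a13, Cyp7b1) was lowest in the same libraries, with 1463, 2002 and 2096 TPM. Among the members Calb1 too peaked at the same number in every set, replicate 1 (tied with replicate 3 in m1). How many of all genes do so was not counted. What the replicate number stands for is not stated in the labels, and no test was made of these values.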
